A study of Mus musculus with 8 samples.

Results

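Regulatory T cells (Tregs) from mice with a Cd70 transgene were compared here with Tregs from mice without it, in 4 of the 8 RNA libraries of the series. The CD70Tg group held 2 libraries of CD4+ Foxp3+ cells from Foxp3 reporter mice of the genotype CD11c-Cd70tg;CD27+/-. In these animals the CD11c promoter, which is active mainly in dendritic cells, drives the Cd70 transgene, so that T cells meet the ligand continuously. The control group held 2 libraries of the same sorted population from CD27+/- mice without the transgene. Both groups therefore carried 1 intact Cd27 allele, and the labels call the control genotype WT while the columns of the deposited table carry KO in their names. Each library was made from 200000 sorted cells. The methods describe cells isolated from spleen and mice of 6 to 8 weeks, close to the age at which the transgenic animals start to fall ill, so contact with CD70 and the condition of the animal cannot be told apart. The number of animals behind a library was not given in the sources used here. A value is the number of reads of a gene after each library was scaled to 20 M reads, and a gene entered the comparison when 2 or more of the 4 Treg libraries reached 60. Of 52636 rows, 4131 carried clone-derived names and were left out, and 12429 genes reached the minimum.

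CD27 is a receptor of the tumour necrosis factor receptor family that resting T cells already display, and CD70 is its only known ligand. Engagement recruits TRAF adaptors, feeds the NF-kB pathways and supports the survival and effector differentiation of T cells. Tregs, which depend on the transcription factor Foxp3, can take on features of the effector cells they restrain. Those that operate in type 1 inflammation carry T-box factors and the chemokine receptor CXCR3.

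The sorted cells were first checked against their labels. Foxp3 read 19769 and 20102 in the control libraries F5 and F7 and 21367 and 21080 in the CD70Tg libraries F6 and F8, a difference that did not pass the test (adjusted p = 0.516). The 5 Treg markers together summed to 70773 and 69605 against 62848 and 63687, with Il2ra, the interleukin-2 receptor alpha chain (23490 and 19497 against 14398 and 14659), and Ctla4 (10142 and 10898 against 8453 and 8890) lower at an adjusted p under 0.05 but short of the fold threshold. Cd27 read 5173 and 5543 against 6123 and 5894 (adjusted p = 0.22). Cd70 itself stayed below the minimum, at 0 and 9 against 11 and 44. The steps between low values showed that 1.91 to 4.57 M reads lay behind the Treg libraries, with CD70Tg library F6 the shallowest, so that 3 reads correspond to a value between 13.1 and 31.3. Libraries of 1 group correlated at r = 0.986 (control) and r = 0.981 (CD70Tg) over 12429 genes. Before the sort, the methods describe a magnetic step that removes CD8+ cells, granulocytes, NK cells, dendritic cells, macrophages and B cells. Its antibodies included anti-Ter119, which binds red cells. How complete this removal was is not stated. Markers of other cells were not level between the groups. The summed erythroid and platelet markers read 576 and 1601 in the control and 4067 and 2467 in the CD70Tg libraries, and 11 lung epithelial genes, a list drawn up after the values were seen, summed to 655 and 1283 against 3286 and 1835. Neutrophil markers summed to 15 and 51 against 339 and 315, with S100a9 the only one of 11 that reached the minimum, while macrophage and monocyte markers stood at 6247 and 6544 against 5126 and 5086. In sorted bulk RNA, fewer cells of a type and less RNA per cell cannot be told apart.

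**Figure D1:**
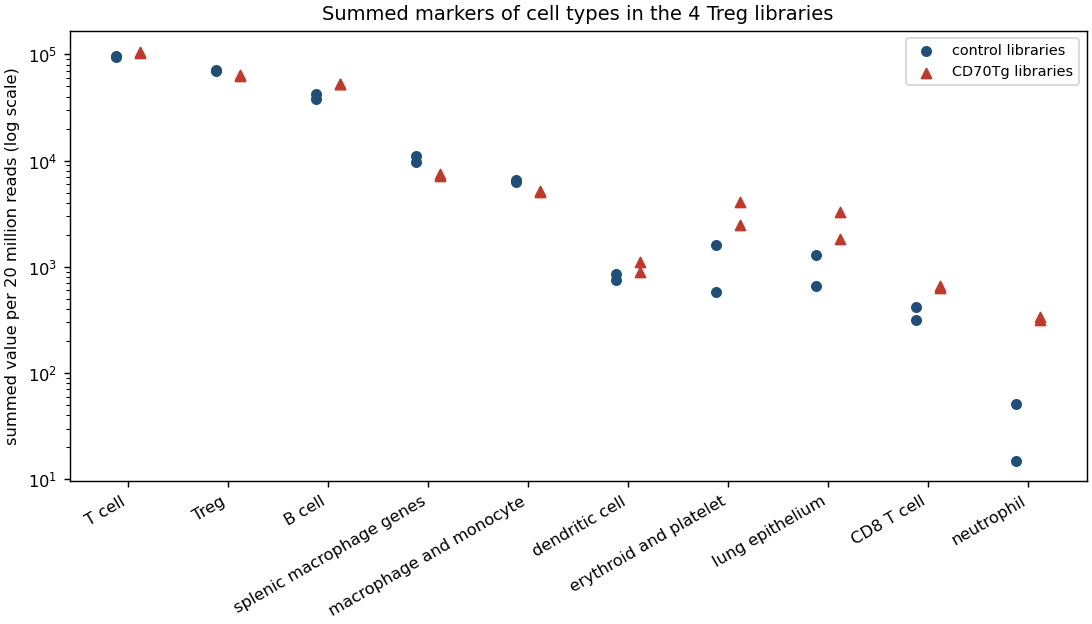
Summed values of cell type markers in each of the 4 Treg libraries, per 20 M reads on a log axis (blue circles, control libraries; red triangles, CD70Tg libraries). The T cell sums are slightly higher and the Treg sums slightly lower in the CD70Tg libraries, the erythroid, lung epithelial and neutrophil sums are higher in both CD70Tg libraries, and the macrophage sums are lower.

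Among changes past the fold threshold, more genes were higher than lower in CD70Tg Tregs. Some chemokine ligands, cytotoxic genes, effector transcription factors, interferon-inducible GTPases and MHC class II genes were called higher. Receptor genes of the LILRB4 locus were also called higher. Matrix genes were called higher too, but most of those calls rested on single libraries. Some transcripts of resting lymphocytes and of macrophages were lower. A gene was called when limma gave an adjusted p under 0.05 and the log2 fold change exceeded 1 in size, with a pseudocount of 5 added to each value. On this rule 333 genes were called higher and 135 lower, which is 2.68% and 1.09% of the genes tested and 3.77% together. Nothing in the labels says that the 2 libraries of a group came from separate animals, so the p-values measure only the spread between these libraries. Every called gene had both CD70Tg libraries outside the range of the control libraries. Such separation alone was common, since 22.3% of all genes had both CD70Tg libraries above the controls and 31.6% had both below. With no threshold on the fold, 6.92% of genes were higher and 6.68% lower at an adjusted p under 0.05. The median log2 fold change over all genes was -0.05. In 124 of the 333 higher calls both control libraries were under the minimum of 60, and in 30 of the 135 lower calls both CD70Tg libraries were. Those genes entered the comparison through 1 group only and had to differ to do so, so counts and medians over lists of low genes are descriptions. With 1 library left out at a time, 155 of the 333 and 26 of the 135 calls held in each of the 4 such fits. Protein-coding genes made up 292 of the higher and 115 of the lower calls.

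**Figure D2:**
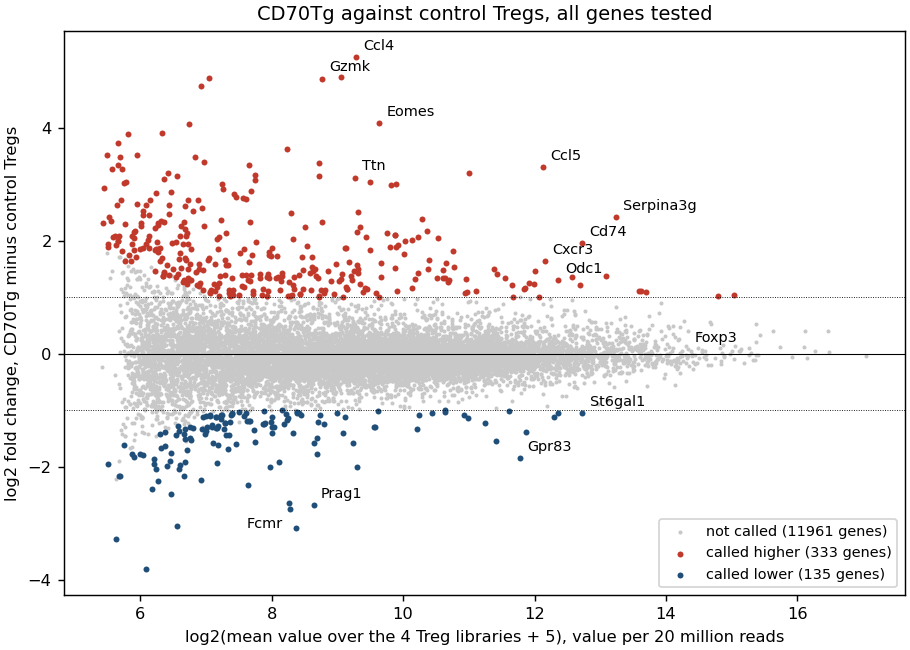
Log2 fold change (CD70Tg minus control) of every tested gene against its mean level over the 4 Treg libraries on a log2 scale (red, 333 genes called higher; blue, 135 called lower; grey, not called). Dotted lines mark the fold threshold. With the pseudocount of 5, Ccl4 has the largest increase, 5.25, and Foxp3 sits at 0.09.

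Eomes, Gzmk, Ccl4, Cxcr3 and Fcmr had been chosen as markers of the response. Eomes, the T-box factor of effector and memory lymphocytes, read 93 and 75 in the control libraries and 1547 and 1458 in the CD70Tg libraries. Its log2 fold change was 4.09 (SE 0.20, adjusted p = 4.46e-10). Gzmk, a granule protease of early effector cells, went from 10 and 49 to 878 and 778 (log2 fold change 4.87). Ccl4, an inflammatory chemokine, went from 10 and 62 to 1213 and 1197, the largest increase at the pseudocount of 5 (log2 fold change 5.25). That rank depends on the pseudocount, since genes at the floor in the controls have folds known only as lower bounds. Cxcr3, the receptor that guides cells to interferon-induced chemokines, was already well expressed at 2310 and 2137 and reached 6729 and 7112 (1.64). Fcmr, the Fc receptor for IgM, moved the other way, from 486 and 565 to 42 and 126 (log2 fold change -2.75, adjusted p = 4.13e-05). In all 5 genes the 2 groups stood apart and the call held whichever library was left out.

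**Figure D3:**
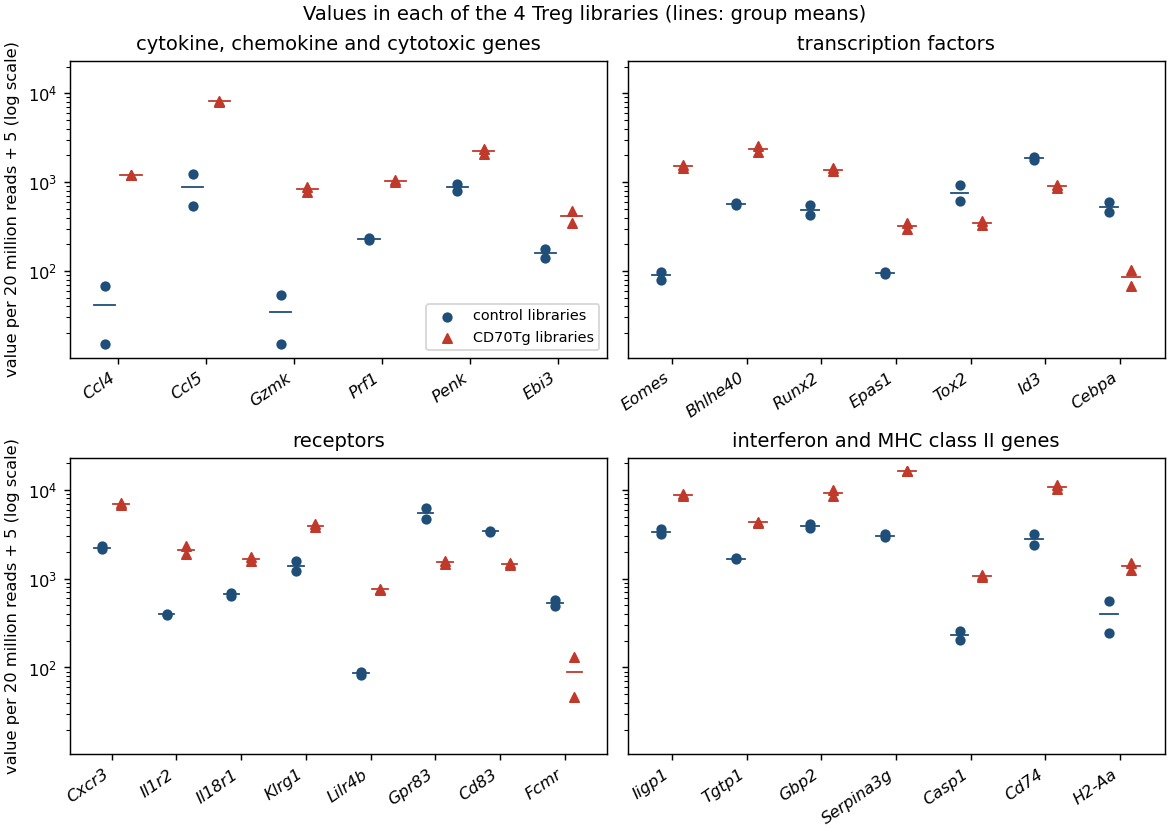
Values of 28 genes in each of the 4 Treg libraries, per 20 M reads plus 5 on a log axis (blue circles, control; red triangles, CD70Tg; lines, group means). No gene shown has overlapping groups; Tox2, Id3, Cebpa, Gpr83, Cd83 and Fcmr are the lower ones.

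Of 18 chemokine ligands only 6 reached the minimum, 3 of them through the CD70Tg libraries alone. Of the 6, 4 were called higher, and the median log2 fold change was 2.59, or 1.26 over the 7 ligands with a value above 10 in each library. Ccl3 read 15 and 53 against 868 and 1175. Ccl5, a chemokine of effector lymphocytes, read 539 and 1226 against 8077 and 8124 (log2 fold change 3.31, SE 0.22), although the control libraries differed from each other and a robust prior gave an adjusted p of 0.112. Cxcl9, a ligand of CXCR3 made in response to interferon, was close to the floor at 20 and 31 against 95 and 115, and its call was lost without control library F5 or either CD70Tg library (adjusted p = 0.127 without F5). Among 18 chemoattractant receptors 5 were called higher and 2 lower. Of the 5, 2 (Cx3cr1 and Ltb4r1) entered through the CD70Tg libraries alone. Cx3cr1, a mark of terminally differentiated cells, rose from 34 and 27 to 314 and 218. Ltb4r1, the high-affinity receptor for leukotriene B4, rose from 34 and 44 to 157 and 169. Of the lower ones, Cxcr4 fell from 2897 and 2680 to 1463 and 1093, and Gpr183, which senses oxysterols at the follicle border, from 1801 and 1485 to 795 and 745. Those 2 calls did not hold throughout, since the log2 fold change of Cxcr4 was -0.93 without CD70Tg library F8 and that of Gpr183 was -0.94 without control library F5.

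Cytotoxic granule genes split into a few large changes and many small ones. Of 18 tested, 5 were called higher and none lower, with a median log2 fold change of 0.35. Of the 5, 2 (Gzmk and Gzma) entered through the CD70Tg libraries alone. Nkg7, a granule membrane protein, rose from 316 and 491 to 3657 and 3681. Prf1, which encodes perforin, rose from 219 and 233 to 1056 and 1001. Gzmb, present in control Tregs at 850 and 666, reached 2174 and 3246. Gzma was near the floor at 10 and 27 against 115 and 87, and was not called without control library F5 (adjusted p = 0.111) or without either CD70Tg library. The 9 NK receptors and adaptors that could be tested did not move as a group (2 higher, 1 lower, median -0.16), and the NK markers themselves were at or below 64 in every library. CD8 T cell markers were higher beside the cytotoxic genes, summing to 317 and 417 against 660 and 631, with Cd8a at 25 and 71 against 262 and 223 (called higher) and Cd8b1 at 292 and 346 against 398 and 408 (not called). Their part in the cytotoxic and chemokine values was not tested. Cd160, an inhibitory and activating receptor of the HVEM pathway, fell from 345 and 303 to 84 and 44 (log2 fold change -2.31).

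Effector transcription factors were higher more often than lower, and those of naive and memory cells the reverse. Of 23 effector factors 7 were called higher, none lower, and each of the 7 held in every fit with 1 library left out. Beside Eomes these were Bhlhe40, a repressor linked to cytokine output, at 549 and 583 against 2195 and 2561 (log2 fold change 2.06), Runx2, at 423 and 548 against 1338 and 1430 (1.51), Epas1, the hypoxia factor HIF-2 alpha, at 88 and 92 against 345 and 289 (1.76), Irf8 (1.53), Tbx21 (1.28) and Id2 (1.11). With no threshold on the fold, 11 of the 23 were higher and 2 lower at an adjusted p under 0.05, the lower ones being Irf4 (2267 and 2194 against 1484 and 1354) and Maf (6575 and 7023 against 5925 and 5117). Most factors of naive and memory cells were lower, by small steps. Among 18 tested, 15 had both CD70Tg libraries below the controls, as had 31.6% of all genes. At an adjusted p under 0.05 and any fold, 9 were lower, against 6.68% of all genes, and none was higher. Id3, which opposes E proteins in resting cells, read 1941 and 1791 against 857 and 936 (log2 fold change -1.05). Tox2, which is also in the Th2, Th17 and Tfh list, read 602 and 916 against 356 and 327 (-1.11). Both passed the fold threshold narrowly, and it was missed by Id3 without F6 (-0.99) or F5 and by Tox2 without F7 (-0.81). Foxp1 (-0.83), Bach2 (-0.68), Klf7 (-0.65), Satb1 (-0.50), Tcf7 (-0.39) and Lef1 (-0.37) stayed short of the fold threshold with adjusted p between 1.1e-05 and 0.0077. Klf2 did not differ, at 7153 and 6559 against 7387 and 6378. Lymphoid homing and quiescence genes went both ways, with 4 of 17 higher (Il7r, Slamf6, S1pr4 and Cd24a) and 3 lower at an adjusted p under 0.05 and no threshold on the fold. Cd24a (64 and 145 against 262 and 261) was called, but not without F5 (adjusted p = 0.202), F6 (0.0748) or F8 (0.076). Il7r, the receptor chain for interleukin-7, read 5309 and 7286 against 9749 and 8765. Igfbp4, a naive cell transcript, fell from 1883 and 1489 to 711 and 620 and Il6ra from 7298 and 6739 to 3793 and 3024, while S1pr1 (6294 and 5894 against 5559 and 4943) did not pass the test. The log2 fold change of Il6ra was -0.99 without F5 and -0.89 without F8.

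A few cytokine receptors and cytokines were higher, among them both chains of the interleukin-18 receptor. Of 29 cytokine receptors 5 were called higher and 2 lower, around a median of 0.10. Il1r2, the decoy receptor that captures interleukin-1, had the largest increase, from 398 and 390 to 1881 and 2322 (log2 fold change 2.39). Both chains of the interleukin-18 receptor rose, Il18r1 from 626 and 692 to 1557 and 1768 and Il18rap from 151 and 215 to 418 and 626. Ifngr1 rose from 7585 and 8245 to 15913 and 18492. Il12rb2 read 44 and 62 against 95 and 256, and its call did not survive the loss of F8 (log2 fold change 0.80, adjusted p = 0.341), F5 or F7. Il17rb fell from 117 and 198 to 63 and 39, a call that was lost without F7 (adjusted p = 0.284) or F8. Of 31 cytokine genes 13 could be tested and 4 were called higher, 2 when all 8 libraries were fitted together. Penk, which encodes proenkephalin and is known in Tregs of inflamed tissue, rose from 796 and 951 to 2069 and 2382, and Ebi3, a subunit of interleukins 27 and 35, from 136 and 171 to 345 and 468, with an adjusted p of 0.0513 when all 8 libraries were fitted together. Il10 read 253 and 307 against 512 and 691 and Ifng 64 and 71 against 168 and 300. Without F8 the log2 fold change of Il10 was 0.87 and the adjusted p of Ifng 0.0788, and without F5 the log2 fold change of Il10 was 0.94. Outside the lists, and picked after the values were seen, Il13ra1 rose from 25 and 36 to 209 and 202 (log2 fold change 2.59).

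Guanylate-binding proteins (GBPs) and immunity-related GTPases (IRGs) coat and disrupt the vacuoles of intracellular microbes. In all 18 of them both CD70Tg libraries lay above the controls, 16 were higher at an adjusted p under 0.05, and 5 passed the fold threshold, each in every fit with 1 library left out. Over all genes tested, 22.3% had both CD70Tg libraries above the controls and 6.92% were higher at that adjusted p. The 5 past the fold threshold were Iigp1, Tgtp1, Gbp10, Gbp2 and Igtp. Their promoters are shown because these genes moved together; 10 of the 18 have a window of 300 bases in the RefSeq table (build GRCm38.p6), running from 250 bases before to 50 after the start of transcription. Motifs were searched on both strands. The interferon-stimulated response element GAAANNGAAA was found in 9 of the 10 and in 3.99% of the 27025 genes with a window, and the gamma-activated sequence TTCNNNGAA in 6 of the 10 and in 9.55% of all. Capitals mark these motifs and, in Gbp2, also an NF-kB motif, GGGANNNTCC.
Gbp2: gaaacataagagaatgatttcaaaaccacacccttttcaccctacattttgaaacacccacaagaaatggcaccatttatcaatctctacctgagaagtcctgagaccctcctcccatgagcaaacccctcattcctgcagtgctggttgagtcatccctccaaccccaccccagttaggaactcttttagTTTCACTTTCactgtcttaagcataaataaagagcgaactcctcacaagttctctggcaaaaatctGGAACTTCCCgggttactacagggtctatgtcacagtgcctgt
Igtp: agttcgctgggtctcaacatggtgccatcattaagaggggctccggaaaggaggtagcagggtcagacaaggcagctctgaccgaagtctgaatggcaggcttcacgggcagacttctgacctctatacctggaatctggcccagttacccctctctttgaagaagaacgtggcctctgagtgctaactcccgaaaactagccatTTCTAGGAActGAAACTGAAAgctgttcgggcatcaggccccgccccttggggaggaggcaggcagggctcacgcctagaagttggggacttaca
Tgtp1: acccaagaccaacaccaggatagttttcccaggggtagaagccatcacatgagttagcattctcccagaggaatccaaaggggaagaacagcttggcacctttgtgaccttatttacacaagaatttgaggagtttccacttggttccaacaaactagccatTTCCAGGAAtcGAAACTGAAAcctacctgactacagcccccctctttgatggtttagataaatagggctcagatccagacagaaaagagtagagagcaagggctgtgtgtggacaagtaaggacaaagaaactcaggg
The windows are chr3:142620413-142620712 on the plus strand for Gbp2, chr11:58199306-58199605 on the plus strand for Igtp and chr11:48992197-48992496 on the minus strand for Tgtp1. In Igtp and Tgtp1 the 2 elements lie side by side, with the gamma-activated sequence first, and in Gbp2 the response element lies at positions -59 to -50. A match of letters does not show binding.

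Gbp2 read 4154 and 3753 in the control and 8485 and 9956 in the CD70Tg libraries (log2 fold change 1.22, SE 0.09). Igtp read 8181 and 7391 against 16728 and 16785 (1.11), and Tgtp1 1718 and 1647 against 4274 and 4318 (1.35). Iigp1 read 3577 and 3210 against 8955 and 8531 (1.37). The antiviral list of 49 genes had a lower median, 0.22, and 1 call. With no threshold on the fold, 15 of the 49 were higher and 1 lower at an adjusted p under 0.05, among them Zbp1, a sensor of nucleic acids (4018 and 3670 against 5580 and 6286), Oas1a, an oligoadenylate synthetase (1398 and 1336 against 1954 and 2143), and Irf7 (1645 and 1839 against 2236 and 2235). Isg15 (835 and 846 against 701 and 892), Ifit1 (743 and 911 against 565 and 881) and Mx1 (248 and 447 against 345 and 435) had overlapping groups. MHC class I and immunoproteasome genes differed by small steps, between -0.03 and 0.78. None passed the fold threshold, but 20 of 22 were higher at an adjusted p under 0.05, against 6.92% of all genes, and the median was 0.44. Psmb9, a catalytic subunit of the immunoproteasome, read 3965 and 4243 against 7022 and 7063 (0.78), Tap1, the peptide transporter, 11471 and 11524 against 19581 and 18552 (0.73) and B2m 44685 and 41941 against 57048 and 58085 (0.41). Serpina3g, Wars and Ubd, known to be inducible by interferon and picked after the values were seen, were higher as well. Serpina3g, an inhibitor of cysteine and serine proteases in activated T cells, read 2926 and 3157 against 16122 and 16290, the smallest adjusted p of the comparison (1.83e-12, log2 fold change 2.41). Its neighbours Serpina3f (151 and 272 against 1610 and 1740) and Serpina3h (10 and 18 against 136 and 120) rose with it, Serpina3h entering through the CD70Tg libraries alone; the other 6 of 9 family members were under the minimum. Wars, the tryptophanyl-tRNA synthetase, rose from 2116 and 1743 to 4410 and 4589. Ubd, a ubiquitin-like modifier, read 5 and 5 against 95 and 87, at least 6.57-fold higher against a floor of 3 reads per control library. The inflammatory caspases Casp1 (199 and 250 against 1098 and 1044) and Casp4 (253 and 219 against 847 and 898) rose as well.

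MHC class II genes, which present extracellular antigen and in mice are expressed mainly by B cells, dendritic cells and macrophages, were higher for the most part. Of 15 tested genes 7 were called higher, 5 of them in every fit with 1 library left out, and none lower, and the median log2 fold change was 1.14. With no threshold on the fold 9 were higher and 1 lower at an adjusted p under 0.05. Cd74, the invariant chain, read 2364 and 3214 in the control and 10219 and 11239 in the CD70Tg libraries (log2 fold change 1.96). H2-Aa read 238 and 552 against 1254 and 1485, H2-Ab1 287 and 548 against 1432 and 1528 and H2-Eb1 350 and 486 against 1484 and 1849. H2-Aa had an adjusted p of 0.132 with a robust prior. The control libraries also differed from each other here, with F7 above F5 in each of these 4 genes. H2-DMb1 (0 and 79 against 105 and 142) and H2-DMb2 (54 and 53 against 136 and 142) were called, but neither call was stable. The adjusted p of H2-DMb1 was 0.599 without F5, 0.181 without F6 and 0.251 without F8, and that of H2-DMb2 lay between 0.0952 and 0.146 whichever library was left out. H2-Ob, which restrains peptide loading, was at 1340 and 1275 against 1024 and 979 (log2 fold change -0.38). Ciita, the class II transactivator, read 34 and 75 against 241 and 87 and did not pass the test (adjusted p = 0.058). Markers of presenting cells were not uniform beside it. The B cell list summed to 38090 and 42480 against 52164 and 52454, almost all of it Ighm (36883 and 41126 against 49097 and 48989), and Igkc rose from 481 and 456 to 1996 and 2290. Ighd was higher by less than the fold threshold (306 and 333 against 492 and 599). Cd22, an inhibitory receptor of B cells, went the other way, at 141 and 123 against 32 and 71, and its call was lost without F5 (adjusted p = 0.31), F6 (0.212) or F7 (0.158). Other B cell genes were low in all 4 libraries, Ms4a1 at 15 and 27 against 11 and 44 and Pax5 at 10 and 22 against 32 and 6. Of the dendritic cell markers Zbtb46 rose from 25 and 27 to 209 and 191, Itgax read 49 and 84 against 74 and 104, Clec9a 5 and 0 against 21 and 22 and Xcr1 10 and 18 against 63 and 33, while Siglech did not exceed 11. Their part in the class II values was not tested.

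Inhibitory receptors changed gene by gene and not as a class. Of 18 tested, 5 were called higher and 1 lower, and the median was -0.07. With no threshold on the fold, 6 were higher and 5 lower at an adjusted p under 0.05. The largest increases were at the LILRB4 locus on chromosome 10, whose products are receptors of the immunoglobulin family. Lilr4b read 78 and 84 against 742 and 767 (log2 fold change 3.14) and Lilrb4a 204 and 193 against 1599 and 1599 (2.98). Another row at the locus, under another identifier with the name Lilrb4a, shares 98.9% of its exonic bases with these genes and is not an independent reading. Havcr2, which encodes TIM-3, rose from 190 and 298 to 586 and 756 and Klrg1, a receptor of mature effector Tregs, from 1218 and 1585 to 3783 and 4073. Lag3 read 2543 and 1826 against 4190 and 4453, on the threshold with a log2 fold change of 1.00 that was 0.76 without F7 and 0.96 without F8. Pvrig, an inhibitory receptor outside the list and picked after the values were seen, rose from 161 and 189 to 387 and 533. Within the Treg core list 6 of 28 were called higher, 3 when all 8 libraries were fitted together, and 2 lower. With no threshold on the fold, 13 were higher and 8 lower, the lower ones including Il2ra, Ctla4 and Icos (9239 and 10272 against 7419 and 7890). Fgl2, a soluble suppressor, rose from 1990 and 2404 to 5987 and 6117 and Itgae, the chain of the integrin that binds E-cadherin, from 4664 and 5031 to 12006 and 13256. Gpr83 fell from 6250 and 4729 to 1578 and 1458 (log2 fold change -1.84) and Cd83 from 3421 and 3372 to 1484 and 1403 (-1.23). Of 22 costimulation genes Cd80 (185 and 254 against 512 and 457) was called higher and Cd40lg (335 and 395 against 115 and 185) lower, and the log2 fold change was 0.92 for Cd80 without F5 and -0.96 for Cd40lg without F6, while the adjusted p of Cd40lg was 0.0614 without F7. The NF-kB and TRAF pathway, through which CD27 signals, had no call among 30 genes; its median was 0.13 and 11 of the 30 were higher at an adjusted p under 0.05 without the fold threshold.

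Matrix genes had many calls at low values. Of 20 tested, 10 were called higher and 1 lower, around a median of 1.09. Of the 10, 6 entered through the CD70Tg libraries alone, and over the 8 genes with a mean of at least 200 there were 3 calls and a median of 0.53. Only Adam8 (296 and 386 against 910 and 773) and Mmp9 (321 and 272 against 617 and 854), both proteases of leukocytes, held in every fit with 1 library left out. The basement membrane genes depended on single libraries. Col4a1 read 39 and 49 against 418 and 104 and Col4a2 20 and 57 against 283 and 120, with CD70Tg library F6 far above F8. Without F6 their adjusted p was 0.198 and 0.131, and that of Col4a2 was 0.0582 without F5. Hspg2, which encodes perlecan, read 20 and 22 against 136 and 82, and its adjusted p was 0.131 without F6 and 0.0558 without F5. Col3a1 read 88 and 167 against 189 and 381, with an adjusted p of 0.393 without F5 and 0.375 without F8. Fn1 (54 and 36 against 178 and 126) had an adjusted p of 0.114 without F6 and 0.0814 without F7, and Col18a1 (20 and 22 against 95 and 153) of 0.0757 without F8. The list of stromal and endothelial markers summed to 4197 and 4672 against 4571 and 4865, mostly Pecam1, which CD4 T cells also express. Lung epithelial transcripts moved with these genes. Scgb1a1, the secretoglobin of airway club cells, read 141 and 259 against 1432 and 359, again highest in F6, and Sftpc 185 and 486 against 732 and 544. Without F6 the adjusted p of Scgb1a1 was 0.135, and that of Sftpc was 0.439 without F5, 0.235 without F6 and 0.077 without F8. The 11 lung genes summed to between 2113 and 3478 in the 4 libraries of conventional T cells, where neither group lay above the other. Their part in the matrix values was not tested. Enzymes that build or trim sulphated glycosaminoglycans, a list drawn up after the values were seen, had 5 of 27 genes called higher, none lower and a median of -0.05. Chst11 (141 and 106 against 575 and 615) and Chst2 (893 and 1029 against 2519 and 2143) are sulphotransferases, Hpse (102 and 110 against 418 and 348) is heparanase and Gpc1 (180 and 215 against 586 and 571) a glypican core protein. The fifth, Chsy1, read 452 and 526 against 1014 and 1066 and had a log2 fold change of 0.98 without F5.

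**Figure D4:**
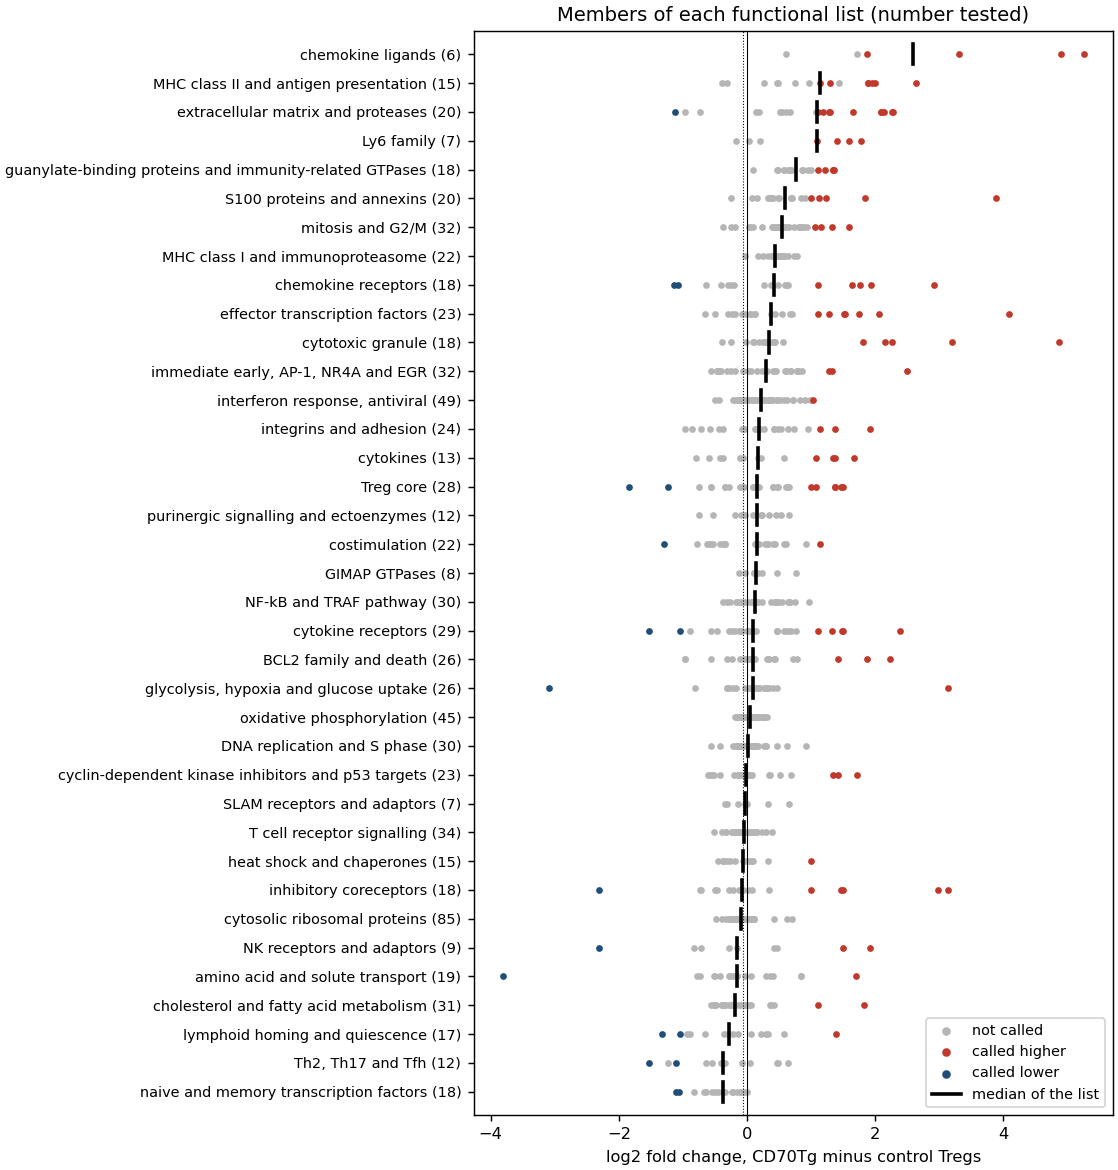
Log2 fold change (CD70Tg minus control Tregs) of the tested members of each functional list with 5 or more members tested, ordered by the median (black bar; dotted line, median of all genes; red, called higher; blue, called lower; grey, not called). Of the lists shown, chemokine ligands have the highest median, 2.59, and naive and memory transcription factors, like the Th2, Th17 and Tfh list, the lowest, -0.38.

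The list of S100 proteins and annexins, which bind calcium, also holds galectins and cytoskeletal genes of effector and memory T cells. In it 16 of 20 genes were higher at an adjusted p under 0.05, against 6.92% of all genes. None was lower, and 5 were called. Lgals3, which encodes galectin-3, rose from 301 and 320 to 1150 and 1104 and S100a4 from 2189 and 2676 to 5486 and 5905. S100a6 read 2640 and 3070 against 5799 and 5644, and its log2 fold change was 0.90 without F5 and 0.99 without F6. S100a4 shares 51.7% of its exonic bases with Gm42674, which was called with it. S100a9, a protein of neutrophils and monocytes, read 0 and 5 against 95 and 104, at least 7.19-fold higher against the floor; other neutrophil genes were below the minimum but mostly higher in the CD70Tg libraries as well, S100a8 at 5 and 0 against 74 and 55, Camp at 0 and 0 against 21 and 28 and Csf3r at 5 and 27 against 63 and 44, while Ly6g, Elane and Mpo did not exceed 11 in any library. Their part in the value of S100a9 was not tested. The Ly6 family had 4 of 7 genes called higher. Ly6a, which encodes Sca-1, rose from 8541 and 8354 to 17460 and 18454 and Ly6c2 from 151 and 110 to 304 and 403, while the calls of Ly6i and Ly6k rested on single libraries. There the adjusted p of Ly6i was 0.0538 without F8, and that of Ly6k was 0.0544 without F5 and 0.069 without F6.

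In the mitosis and G2/M list 23 of 32 genes had both CD70Tg libraries above the controls, against 22.3% of all genes. None had both below. At an adjusted p under 0.05, 11 were higher, against 6.92% of all genes. Of the 32, 4 were called and the median log2 fold change was 0.54. Ccnb2, a mitotic cyclin, read 287 and 311 against 701 and 811 and Ube2c, which tags cyclins for destruction, 180 and 211 against 450 and 430. DNA replication and S phase genes had no call among 30, 2 higher at an adjusted p under 0.05 and a median of 0.01. Among 26 death genes 6 were higher and 3 lower at an adjusted p under 0.05, and among 23 cell cycle inhibitor and p53 target genes 5 were higher and 5 lower. Bcl2, the survival factor, read 3839 and 3359 against 1808 and 1865 (log2 fold change -0.97), just short of the fold threshold. Pmaip1, the BH3-only protein NOXA, rose from 292 and 276 to 627 and 941 and Gadd45g from 195 and 149 to 408 and 794. Cdkn1a, which encodes the inhibitor p21, read 68 and 44 against 147 and 147, and its call was lost whichever library was left out (adjusted p between 0.0559 and 0.188). Of 32 immediate early genes 14 were higher and 7 lower at an adjusted p under 0.05, the lower ones including Egr1 (2897 and 2680 against 1808 and 2246) and Cd69 (1728 and 1743 against 1223 and 1126). Nr4a2 (112 and 71 against 502 and 555), Jun (1029 and 1226 against 2487 and 3230) and Fosl2 (195 and 127 against 345 and 441) were called, Fosl2 with a log2 fold change of 0.98 without F7 and an adjusted p of 0.0531 without F8. Some lists had no call, beside the 3.77% of all tested genes that were called. These were T cell receptor signalling (34 genes, median -0.04), SLAM receptors and adaptors (7 genes, -0.03), oxidative phosphorylation (45 genes, 0.04), GIMAP GTPases (8 genes, 0.14) and purinergic enzymes (12 genes, 0.15). Of the purinergic genes 3 were nevertheless higher and 2 lower at an adjusted p under 0.05, among them Entpd1, which encodes CD39 (1461 and 1441 against 2257 and 2333), and Nt5e, which encodes CD73 (6765 and 6918 against 4044 and 4089). Cytosolic ribosomal protein genes also had none among 85, with a median of -0.10 and 33 of them below both controls, against 31.6% of all genes. In 26 glycolysis and hypoxia genes the calls were Aqp1, a water channel (10 and 18 against 209 and 120), and Eno1b. This enolase paralogue fell from 602 and 565 to 84 and 49. With no threshold on the fold, 7 of the 26 were higher and 1 lower at an adjusted p under 0.05. The median of the list was 0.09.

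Most calls fell outside every list, 236 of the higher and 119 of the lower. Among the former, ranked by fold, Gda, the guanine deaminase, read 10 and 0 against 199 and 256, at least 16.4-fold higher against the floor. Dscam, a homophilic adhesion molecule of neurons, read 30 and 53 against 533 and 571 (log2 fold change 3.63, SE 0.32). Car2, a cytosolic carbonic anhydrase abundant in red cells, read 54 and 88 against 826 and 707, and Slc4a1, the anion exchanger of the red cell membrane, 25 and 57 against 492 and 261. The haemoglobin genes moved in the same libraries, Hbb-bs at 219 and 644 against 1442 and 936 and Hba-a1 at 175 and 403 against 1087 and 642, with adjusted p of 0.0816 and 0.0545 without F6, and a log2 fold change of 0.85 for Hbb-bs without F5. The part of red cell RNA in the values of Car2 and Slc4a1 was not tested. Ttn, the giant sarcomeric protein, read 98 and 149 against 1202 and 985 and Ndnf, a secreted neuronal factor, 15 and 57 against 314 and 397. Carmil1, a regulator of actin capping, read 20 and 14 against 241 and 207, Stk32c 39 and 36 against 335 and 425 and Cnih2, an auxiliary protein of glutamate receptors, 34 and 57 against 387 and 327. Among strongly expressed genes, which rank lower by fold and were picked out after the values were seen, Odc1, the first enzyme of polyamine synthesis, rose from 3135 and 2881 to 6771 and 8156, Mxd1, a partner of MAX that opposes MYC, from 2373 and 2190 to 4901 and 5198, and Pglyrp1, a peptidoglycan recognition protein, from 1476 and 1542 to 3835 and 4187. Sema7a, a membrane-anchored semaphorin (39 and 53 against 377 and 294), was also picked after the values were seen. So was Pdgfb, a growth factor for mesenchymal cells (39 and 40 against 262 and 343). Both entered through the CD70Tg libraries alone.

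The lower genes were fewer and had smaller folds. Outside the lists the ranking by fold was led by Prag1, a pseudokinase of the cytoskeleton, which fell from 782 and 583 to 126 and 82 (log2 fold change -2.67, SE 0.26). Cebpa, a factor of myeloid differentiation, fell from 588 and 456 to 63 and 98 (-2.64). Sccpdh (394 and 399 against 84 and 109), Chdh, the choline dehydrogenase (520 and 736 against 136 and 234), and Angptl2, a secreted angiopoietin-like protein (918 and 872 against 314 and 283), fell too. Tbc1d4, a Rab GTPase activator that holds back glucose transporters until insulin or AKT signalling releases it, fell from 4334 and 3797 to 1526 and 1273 (-1.54). Gpm6b, Fhdc1 and Mcoln3 belong to the same ranking, but their adjusted p was 0.113, 0.104 and 0.0845 without F5. Among strongly expressed genes, picked out after the values were seen, St6gal1, which adds the sialic acid recognised by CD22, fell from 9176 and 9121 to 4389 and 4453, Dtx1, a target and regulator of Notch, from 5881 and 4887 to 2122 and 2007 and Ddit4, an inhibitor of mTORC1, from 7347 and 6432 to 3522 and 2871 (its log2 fold change was -0.96 without F8).

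A further share of the lower calls lies in genes best known from tissue macrophages. The macrophage and monocyte marker list had 11 genes tested, 1 called higher (Itgam), 1 lower (Cd163) and a median log2 fold change of -0.49. The log2 fold change of Itgam was 0.92 without F5. Another row of that name, under another identifier, read 127 and 136 against 230 and 283 and was not called. In a list of 19 genes drawn up after the values were seen, and so chosen for this pattern, 11 were called lower, none higher, and the median was -1.25. F13a1, a coagulation factor subunit of resident macrophages, fell from 821 and 1183 to 293 and 202. Fcna, a ficolin of splenic and liver macrophages, fell from 539 and 675 to 220 and 202 and Trf, which encodes transferrin, from 709 and 863 to 324 and 267. Siglec1 read 146 and 145 against 63 and 17, Mertk 107 and 206 against 32 and 55 and Cd163 68 and 92 against 11 and 17; without F7 their adjusted p was 0.0896, 0.275 and 0.208. Mertk was also lost without F6, Siglec1 without F5 or F8 and Cd163 without F5 or F6. The summed list read 9661 and 11085 in the control and 7167 and 7416 in the CD70Tg libraries, and 1715 to 2786 in the libraries of conventional T cells. Not every gene of these cells was lower, since Axl read 1354 and 1362 against 2122 and 2355, Lyz2 641 and 872 against 1181 and 1077 and Itgam 146 and 198 against 377 and 381. The part of macrophage RNA in the lower calls was not tested.

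Some called genes lay within 100 kb of another called in the same direction; how often neighbours would do so in general was not measured. The longest run, 7 of 16 tested genes on chromosome 17 from 34083843 to 34316674 (build mm10), was the class II region with H2-Oa, H2-DMb2, H2-DMb1, H2-Ab1, H2-Aa and H2-Eb1. Farther along, from 34466562 to 34517352, Btnl4, Btnl5-ps and Btnl6 of the butyrophilin-like family, picked after the values were seen, were called. Each entered through the CD70Tg libraries alone, and the other 4 of 7 family members were under the minimum. Btnl5-ps read 10 and 18 against 230 and 180, Btnl4 15 and 18 against 115 and 71 and Btnl6 5 and 31 against 136 and 71; the adjusted p of Btnl4 was 0.0756 without F5 and 0.149 without F6, and that of Btnl6 was 0.182 and 0.196. On chromosome 18 a run of 5 of 5 tested genes held Iigp1 with Gm4951 (165 and 206 against 1024 and 1126) and Gm4841 (481 and 329 against 1568 and 1469). On chromosome 6, from 70719074 to 70740554, the immunoglobulin kappa segments Igkj1, Igkj2, Igkj5 and Igkc and the overlapping transcript Gm30211 were 5 of 5. The adjusted p of Igkj2 was 0.0544 without F6, 0.0525 without F7 and 0.0871 without F8, and that of Igkj5 was 0.0715 without F6. Other runs were Serpina3f to Serpina3h on chromosome 12, Ccl3 with Ccl4 on chromosome 11, Gzma with Gzmk on chromosome 13, Casp1 with Casp4 on chromosome 9 and Il18r1 with Il18rap on chromosome 1. Neighbours of 1 family can share reads, and 19 of the higher and 6 of the lower calls share over 50% of their exonic bases with another gene.

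The same transgene was read in conventional CD4+ Foxp3- T cells (Tconv, 2 libraries per group), which shows how much of the Treg response was shared. Of the 333 genes called higher in Tregs, 258 had both CD70Tg Tconv libraries above both Tconv controls, as had 23.5% of all genes tested, and 7 had both below. Of the 135 lower genes, 96 had both below, as had 21.1% of all genes, and 2 had both above. The median log2 fold change of the higher genes was 1.65 in Tregs and 1.30 in Tconv cells, and that of the lower genes -1.33 and -0.64. A difference between the 2 responses, tested over all 8 libraries, passed an adjusted p of 0.05 in 132 genes (1.06%), against 61 with limma-voom and 57 (without the CD70Tg Treg library F6) to 280 (without the CD70Tg Tconv library F2) with 1 library left out. Of the 132, 35 were called higher and 6 lower in Tregs. In 14 of the 35 the increase was larger in Tregs. These included Car2 (log2 fold change 3.38 in Tregs and 1.12 in Tconv cells), Il13ra1 (2.59 and -0.58), Padi2, an enzyme that converts arginine to citrulline (1.49 and 0.15), Epas1 (1.76 and 0.28), Pcyt1a, of phosphatidylcholine synthesis (1.36 and 0.14), and Pnkd (1.43 and -0.02). In the other 21 the increase was larger in Tconv cells, as for Havcr2 (1.46 and 5.78), Plek (1.37 and 4.36), Gzmb (1.81 and 4.91) and Klrg1 (1.49 and 3.58). No member of the class II, mitotic or antiviral lists differed between the subsets at this threshold. Of the lower genes, Tbc1d4 (-1.54 and -0.38) and Prag1 fell further in Tregs and Eno1b (-3.08 and -6.27) further in Tconv cells. The Tconv libraries were deeper, at 6.94 to 33.31 M reads.

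**Figure D5:**
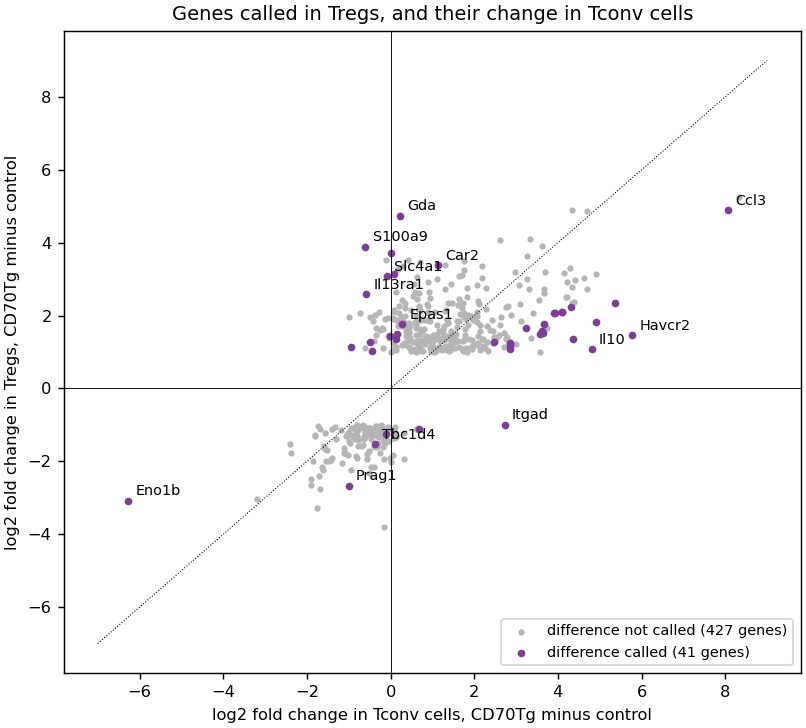
Log2 fold change in Tregs against that in Tconv cells (both CD70Tg minus control) for the 468 genes called in Tregs (purple, 41 genes whose responses differed at an adjusted p under 0.05; grey, the other called genes; dotted line, equal change). Gda, Il13ra1, S100a9 and Slc4a1 lie near 0 on the Tconv axis, and Havcr2, Il10 and Ccl3 far to the right of the line.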

How the data were processed

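RNA of 200000 sorted CD4+ Foxp3+ or CD4+ Foxp3- cells per library was sequenced in 8 libraries, 2 for each of 4 groups. The authors trimmed reads with Trimmomatic 0.36, aligned them to mm10 with STAR 2.5.3 and counted genes with HTSeq 0.9.1. The deposited table holds score values: counts that the authors brought to a common 20 M reads, in whole numbers, so a value moves in steps of 1 read, and steps are coarser in shallower libraries. The annotation and strand setting were not given in the sources used here, so overlapping and antisense genes are uncertain. The steps gave 1.91 to 4.57 M reads per Treg library.

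Values were taken as log2(value + 5), which understates changes of low genes, and the 4 Treg libraries were fitted with limma 3.58.1 in R 4.3.3, with Benjamini-Hochberg adjustment over 12429 genes. The difference between subsets was an interaction term over all 8 libraries. This script was tested on simulated data. Clone-named rows (4131) were left out. Positions came from GENCODE M21, which matched 99.7% of identifiers. Genes were named as markers or as members of functional lists. Outside the lists they came from the 15 largest increases and 15 largest decreases among called genes whose higher group averaged at least 200. Other genes named, such as Il13ra1, Pvrig, Wars and Ubd, were picked after the values were seen, as was the SERPINA3 family list. The members and lists were chosen with earlier results of these data known. Alternatives were other pseudocounts, minimum values, size factors, fits, thresholds and the loss of each library. The fit without 1 library leaves a group with 1 library, which is assumed to vary like the other group. Some genes are not reported here.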

Additional observations from a re-analysis of the deposited data

Results flagged for a closer look

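The following 33 of 132 genes, those named in the text, are listed because the change with the transgene differed between Tregs and Tconv cells in the interaction test over all 8 libraries (limma, adjusted p under 0.05). Values are the log2 fold change in Tregs minus that in Tconv cells, so that a value above 0 means a higher fold change in Tregs. With limma-voom 61 genes passed, and 57 to 280 with 1 library left out. For Gda and S100a9, which were at the floor in control Tregs and low in Tconv cells, the size of the difference depends on the pseudocount.

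Among genes known from myeloid or red cells, the difference was 4.49 for S100a9, 2.09 for Itgam, 1.20 for Lyz2, 3.16 for Slc4a1 and 2.25 for Car2. It was 4.50 for Gda, 3.06 for Aqp1 and 3.16 for Il13ra1. Smaller positive differences were those of Padi2 (1.34), Pnkd (1.46), Pcyt1a (1.22), Epas1 (1.48) and Fosl2 (1.78). Eno1b, which was lower in both subsets, had a difference of 3.18.

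Over all 132 genes 106 differences were negative. Those of the genes named here were -4.31 for Havcr2, -3.72 for Il10, -3.16 for Ccl3, -3.10 for Gzmb, -2.99 for Plek, -2.12 for Runx2, -2.09 for Klrg1, -1.39 for Irf4, -1.86 for Bhlhe40 and -1.62 for S100a4. The sulphotransferases Chst11 (-2.08) and Chst2 (-1.20) and the synthase Chsy1 (-1.78) were also in this group. Itgad, an integrin chain of splenic macrophages, had a difference of -3.73, Prag1 of -1.67 and Tbc1d4 of -1.15. The differences of Entpd1 (-2.61), Bcl2 (-1.44) and Ctla4 (-1.05) were negative as well.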

How the results depend on the processing

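The counts of 333 higher and 135 lower genes stayed within 1.5 times under other pseudocounts, a value above 10 in each library, median-of-ratios factors, all 8 libraries in one fit, limma-voom, a robust prior and the clone-named rows kept. A mean of at least 200 left 161 and 56, an adjusted p under 0.01 left 72 lower genes, and dropping the fold threshold gave 860 and 830. With no minimum value limma called 0 higher and 0 lower genes among 23301, although 3934 had an unadjusted p under 0.05, and limma-voom with the minimum called 357 and 139. Leaving out 1 library gave 219 (without F6) to 310 higher and 56 (without F5) to 174 lower genes; without F7 there were 71 lower genes. Genes differing between subsets numbered 132, 61 with limma-voom, and 57 (without Treg library F6) to 280 (without Tconv library F2) with 1 library left out.

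The log2 fold change of Ciita passed the test with a pseudocount of 20 (adjusted p = 0.0496), a robust prior (0.0474), without F7 (0.0343) and without F8 (0.0226). With all 8 libraries in one fit the calls of Il10 (adjusted p = 0.195), Lag3 (0.212), Cd80 (0.225) and Ebi3 (0.0513) were lost, and with a robust prior those of Ccl5 (0.112), H2-Aa (0.132), Hba-a1 (0.182) and Hbb-bs (0.388). Some uncalled genes changed sign. Klf2 lay at 0.00 with limma-voom and between -0.10 and 0.11 with 1 library left out, Mx1 between -0.20 and 0.63, Isg15 between -0.26 and 0.09 and Ifit1 between -0.54 and 0.10. The list medians of inhibitory receptors (up to 0.01), costimulation (down to -0.02), S phase (down to -0.06), SLAM (up to 0.17), NK receptors (up to 0.07) and oxidative phosphorylation (down to -0.03) also changed sign. No paired analysis was possible because the replicate numbers in the titles are missing from the column names. Precision for low genes is limited by 2 libraries a group and by the 1.91 M reads of F6, where 1 read is worth a value of 10.4.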
